A study of Homo sapiens with 18 samples.

Results

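Messenger RNA levels of 9 interferon-stimulated genes (IFI6, IFI27, ISG15, BST2, IFIT1, IFIT2, IFIT3, MX1 and OAS1) were followed across 18 RNA sequencing libraries of human cell lines. The genes were taken by symbol, and all 9 were listed in each of 3 deposited gene tables, among 15543, 31585 and 32555 listed genes. The libraries form 6 groups of 3, set against each other in 3 comparisons, each with its own table.

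SW480-LM3 is a line obtained from SW480 colorectal carcinoma cells after 3 rounds of selection by injection into the spleen, and SW480-P is its unselected parent. EV-XP-NID1-LX-2 are LX-2 hepatic stellate cells incubated for 48 hours with exosomes that carry NID1. EV-XP-LX-2 are LX-2 cells of the control arm, which had an exposure of 48 hours too. LV5-NID1 are SW480 cells that overexpress NID1, treated over 72 hours with GW4869, a neutral sphingomyelinase inhibitor that lowers exosome release. LV5 are the control SW480 cells. Whether these were given GW4869 too is not stated, so effects of NID1 and of GW4869 cannot be told apart in that comparison. NID1 (nidogen 1) is a basement membrane glycoprotein. The meaning of XP is not stated, and each comparison rests on a single cell line. Nothing in the labels says that the 3 libraries of a group came from separate cultures, so each p-value sets a difference against a spread between libraries that may be purely technical.

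Interferons are secreted antiviral cytokines. Type I and type III interferons act through receptors coupled to the kinases JAK1 and TYK2, which activate transcription factors of the STAT family. The factor ISGF3, which includes STAT2 and IRF9, binds a sequence element in the promoters of interferon-stimulated genes. Many of these genes also have a basal level in tumour cells and fibroblasts without added interferon.

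The genes lie on 6 chromosomes (GENCODE v29, GRCh38; the build the authors used is not given in the sources used here). BST2 is on the minus strand at chr19:17402939-17405648, and IFI6 is on the minus strand at chr1:27666061-27672218. The others are on the plus strand, ISG15 at chr1:1001138-1014540, IFI27 at chr14:94104836-94116698, MX1 at chr21:41420304-41459214 and OAS1 at chr12:112906777-112933222. IFIT2, IFIT3 and IFIT1 are neighbours at chr10:89283694-89309276, chr10:89327894-89340971 and chr10:89392546-89406486. Exons of ISG15, IFIT2, MX1 and OAS1 overlap exons of other annotated genes (AL645608.3 at ISG15, LIPA and AL353751.1 at IFIT2, AP001610.1 at MX1, AC004551.1 at OAS1). The labels do not state strand-specific counting, so reads of those overlaps cannot be told apart.

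Promoter sequence is shown for 4 genes on which the results below turn, with the core of the ISGF3 element in capitals. Each window runs, in the direction of transcription, from 250 bases before to 50 bases after the RefSeq start (GRCh38.p14). The BST2 window is chr19:17405581-17405880 on the minus strand, the IFI6 window chr1:27672143-27672442 on the minus strand, the ISG15 window chr1:1013247-1013546 on the plus strand and the OAS1 window chr12:112906712-112907011 on the plus strand.
BST2: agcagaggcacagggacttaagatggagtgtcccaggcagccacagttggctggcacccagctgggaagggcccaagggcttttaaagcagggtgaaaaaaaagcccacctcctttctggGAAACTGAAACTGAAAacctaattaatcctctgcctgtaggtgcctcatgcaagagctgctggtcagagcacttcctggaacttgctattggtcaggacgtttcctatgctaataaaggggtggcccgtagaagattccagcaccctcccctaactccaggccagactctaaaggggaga
IFI6: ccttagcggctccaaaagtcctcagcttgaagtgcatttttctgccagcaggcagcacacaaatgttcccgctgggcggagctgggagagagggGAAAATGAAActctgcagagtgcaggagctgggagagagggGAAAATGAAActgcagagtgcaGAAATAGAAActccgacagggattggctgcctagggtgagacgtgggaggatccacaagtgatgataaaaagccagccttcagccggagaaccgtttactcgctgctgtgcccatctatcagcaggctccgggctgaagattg
ISG15: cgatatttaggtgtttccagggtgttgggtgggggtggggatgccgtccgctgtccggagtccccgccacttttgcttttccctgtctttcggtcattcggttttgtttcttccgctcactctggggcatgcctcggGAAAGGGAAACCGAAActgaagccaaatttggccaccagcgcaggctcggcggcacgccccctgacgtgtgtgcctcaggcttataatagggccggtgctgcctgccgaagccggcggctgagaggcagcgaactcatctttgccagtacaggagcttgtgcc
OAS1: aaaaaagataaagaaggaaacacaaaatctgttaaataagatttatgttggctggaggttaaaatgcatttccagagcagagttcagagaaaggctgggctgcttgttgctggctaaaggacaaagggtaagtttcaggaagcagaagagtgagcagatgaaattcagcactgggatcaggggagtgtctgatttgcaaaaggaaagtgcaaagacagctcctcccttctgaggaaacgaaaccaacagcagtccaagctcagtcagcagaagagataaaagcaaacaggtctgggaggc
The capitals mark GAAA and GAAA with any 2 bases between them, searched on both strands, where neighbouring matches may share bases. The BST2 window held 2 overlapping matches, the IFI6 window 3, the ISG15 window 2 overlapping matches and the OAS1 window 0. Windows were available for 8 of the 9 genes (all but IFIT2), 12 windows in all. Of these, 10 windows, belonging to 7 genes, held the motif, against 3.57% of 34943 RefSeq promoter windows. A spacing of 1 base, GAAANGAAA, was searched after the OAS1 window had been read. It matched in 4 of the 12 windows, of 3 genes including OAS1, against 3.12% of all windows. The motif TTCNNNGAA, the form bound by STAT dimers, matched in 5 windows of 4 genes, against 7.66% of all windows. A match describes the letters only. The windows also differed in CpG dinucleotides, with 2 in BST2, 1 in OAS1, 9 in IFI6 and 20 in ISG15, against a median of 14 over all windows.

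SW480-LM3 and SW480-P values are a CPM-like signal, a read count divided by 1 factor per library, with 15531517 to 16586016 recovered reads per SW480-LM3 library and 15504205 to 18965163 per SW480-P library. The other values are TPM, which are scaled by transcript length and library total, and their depth is unknown. As a check of the labels, NID1 was at 46.9 ± 2.21 signal in SW480-LM3 and 0.501 ± 0.129 in SW480-P, at 20.8 ± 2.44 TPM in EV-XP-NID1-LX-2 and 25.4 ± 0.5 TPM in EV-XP-LX-2, and at 360 ± 16.6 TPM in LV5-NID1 and 0.02 ± 0.02 TPM in LV5 (SD, n = 3 each). In LX-2 this is the cells' own NID1 RNA, which does not show what the exosomes carried. LV5 and LV5-NID1 are labelled SW480. Over 14744 genes, the ranks of SW480-P followed those of LV5 with a Spearman rho of 0.886 and those of EV-XP-LX-2 with 0.794. For SW480-LM3 the rho was 0.694 with LV5 and 0.713 with EV-XP-LX-2, so the library group labelled SW480-LM3 ranked no closer to LV5 than to LX-2. These values cross tables in different units. Summed colon epithelium markers were 952 to 986 signal in SW480-LM3 and 122 to 126 in SW480-P, with EPCAM, CDH1 and VIL1 called higher. CDX2 was tested there and not called. The colon epithelium sum was 9.31 to 11.4 TPM in LV5-NID1 and 6.8 to 8.69 TPM in LV5, and CDX2 was at 0 in every LV5-NID1 library. Summed stellate or fibroblast markers were 16.9 to 20.8 signal in SW480-LM3 and 8.88 to 9.18 in SW480-P. Of the 3 tested, COL1A1 and TAGLN were called higher in SW480-LM3 and 1 was not called. Of the LX-2 libraries, all held COL1A1 and TAGLN, while LRAT was at or near 0. Summed leukocyte markers were 19.9 to 25.5 signal in SW480-LM3 and 9.61 to 9.84 in SW480-P. Only 2 of the 7 markers were listed for these 2 groups, and 1 of them, CORO1A, was called higher. The sums were 3.23 to 6.22 TPM in EV-XP-NID1-LX-2 and 3.26 to 5.21 TPM in EV-XP-LX-2. They were 1.73 to 3.74 TPM in LV5-NID1 and 4.24 to 5.54 TPM in LV5. PTPRC, which defines leukocytes, averaged 0.00333 TPM in EV-XP-NID1-LX-2, 0.0367 TPM in EV-XP-LX-2, 0.0133 TPM in LV5-NID1 and 0.02 TPM in LV5, and was not analysed in SW480-LM3 and SW480-P.

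**Figure D1:**
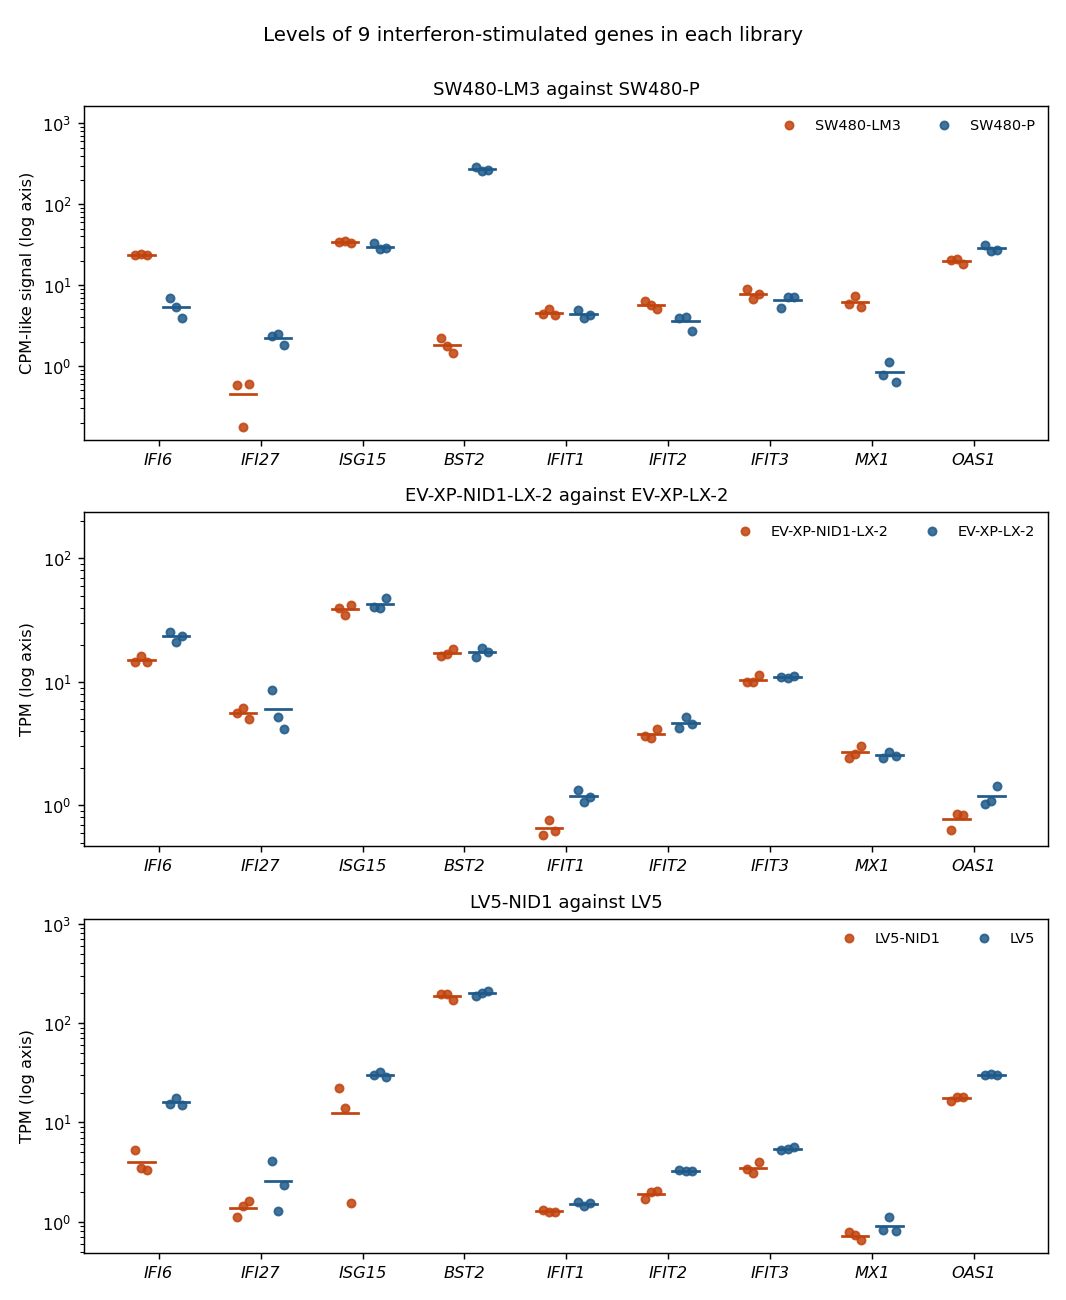
Level of each of the 9 genes in every library, in CPM-like signal (top) or TPM (middle and bottom) on log axes; points are libraries and bars are means of 3. BST2 sits between 1.46 and 2.21 signal in SW480-LM3 and between 258 and 286 in SW480-P, and ISG15 is spread from 1.55 to 22.08 TPM in LV5-NID1.

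The first comparison sets the libraries labelled SW480-LM3, by the labels a line selected for metastasis, against those labelled SW480-P, its parent. Selection and any other difference between the lines, whose gene ranks are given above, cannot be told apart here. The 9 genes moved in both directions. BST2, IFI27 and OAS1 were lower in SW480-LM3, and IFI6, MX1, IFIT2 and ISG15 were higher. IFIT1 and IFIT3 were not called. Calls rest on a limma fit of log2 of the value plus 1 over all tested genes, with Benjamini-Hochberg adjustment and a threshold of 0.05, and the log2 fold changes below are on that scale. The count of 7 of 9 called stands beside a background of 87.8% of 14527 genes, with 43.9% called higher and 43.9% called lower. Groups did not overlap for 7 of the 9, against 87.6% of all genes, and 4 of the 9 (BST2, IFI6, MX1 and IFI27) were called with a change of at least 1 on the log2 scale, against 45.4% of all genes. The median log2 fold change was 0.2 for the 9 genes and -0.004 for all genes.

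BST2 encodes tetherin, a membrane protein that holds budding enveloped viruses, and also exosomes, at the cell surface. Its signal was 2.21, 1.755 and 1.464 in SW480-LM3, against 285.684, 257.631 and 265.129 in SW480-P. Every SW480-LM3 library was far below every SW480-P library. These levels rest on 38, 30 and 27 reads in SW480-LM3 and on 4013, 4423 and 3761 reads in SW480-P. BST2 fell by 6.6 on the log2 scale (SE 0.093, adjusted p = 1.15e-16), and its mean was 149-fold lower in SW480-LM3. Only 0.193% of the tested genes had a lower log2 fold change.

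IFI6 encodes a small interferon-induced membrane protein with antiviral and anti-apoptotic roles. Its signal was 23.552, 23.929 and 23.537 in SW480-LM3, against 6.905, 5.301 and 3.877 in SW480-P. The SW480-LM3 libraries were nearly alike and all above the SW480-P libraries, which varied more. IFI6 rose by a log2 fold change of 1.98 (SE 0.14, adjusted p = 5.58e-09), with a mean 4.42-fold higher. IFI27, a related membrane protein of the same family, went the other way. Its signal was 0.582, 0.176 and 0.597 in SW480-LM3, against 2.349, 2.505 and 1.833 in SW480-P, and the groups did not overlap. These were low counts, with 3 to 11 reads per SW480-LM3 library and 26 to 43 per SW480-P library. IFI27 fell by 1.16 on the log2 scale (SE 0.16, adjusted p = 9.51e-06).

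MX1 encodes a dynamin-like GTPase that traps viral nucleocapsids. Its signal was 5.815, 7.255 and 5.423 in SW480-LM3, against 0.783, 1.107 and 0.634 in SW480-P. All SW480-LM3 libraries were above all SW480-P libraries, in which MX1 had 9 to 19 reads. MX1 rose by a log2 fold change of 1.96 (SE 0.15, adjusted p = 1.2e-08), with a mean 7.33-fold higher. OAS1, which senses double-stranded RNA and makes the oligoadenylates that activate RNase L, was at 20.644, 21.121 and 18.385 in SW480-LM3, against 31.323, 26.736 and 27.281 in SW480-P. The groups did not overlap, and OAS1 fell by 0.48 on the log2 scale (SE 0.086, adjusted p = 9.51e-05).

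The IFIT genes encode proteins with tetratricopeptide repeats that bind viral RNA and restrain its translation. IFIT2 was at 6.281, 5.675 and 5.098 in SW480-LM3, against 3.915, 4.077 and 2.679 in SW480-P, without overlap, and rose by a log2 fold change of 0.56 (SE 0.15, adjusted p = 0.00268). Its neighbours overlapped between the groups. IFIT3 averaged 7.83 ± 1.17 in SW480-LM3 and 6.49 ± 1.12 in SW480-P (SD, n = 3 each), with a log2 fold change of 0.24 (limma adjusted p = 0.128). IFIT1 averaged 4.56 ± 0.411 in SW480-LM3 and 4.39 ± 0.482 in SW480-P (SD, n = 3 each), with a log2 fold change of 0.05 (limma adjusted p = 0.747). With a trend on transcript GC content removed, both were called higher, IFIT3 at 0.49 (adjusted p = 0.00386) and IFIT1 at 0.37 (adjusted p = 0.0172).

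ISG15 encodes a ubiquitin-like protein that is joined to other proteins and is also secreted. Its signal was 34.485, 34.928 and 33.57 in SW480-LM3, against 32.818, 27.901 and 29.044 in SW480-P. The groups were close and did not overlap. The log2 fold change was 0.2 (SE 0.072, adjusted p = 0.0207), and this call depended on the processing. It was lost without SW480-LM3 replicate 2 (adjusted p = 0.0592), without SW480-P replicate 2 (0.0932) and without SW480-P replicate 3 (0.0601). It was also lost with quantile normalization (log2 fold change 0.07, adjusted p = 0.37) and with DESeq2 on the recovered reads (adjusted p = 0.062). With the GC trend removed it reversed to -0.47 (adjusted p = 8.56e-06). The ISG15 transcript has 63.4% GC and falls in the decile of genes with the highest GC, whose median log2 difference was 0.71, against -0.44 in the lowest decile.

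Among 74 tested genes of the wider interferon pathway, 37 were called higher and 31 lower, beside the same 87.8% background. Of the 12 receptor, JAK kinase and ISGF3 genes, 5 were higher and 5 lower. STAT2 averaged 57.4 ± 1.21 in SW480-LM3 and 13.8 ± 1.66 in SW480-P, and TYK2 averaged 61.1 ± 2.62 and 21.3 ± 2.46 in the same groups (SD, n = 3 each). IFNAR2, a subunit of the type I interferon receptor, was lower, at 13 ± 0.801 in SW480-LM3 and 38.4 ± 2.03 in SW480-P. The limma adjusted p was 7.95e-12 for STAT2, 1.48e-10 for TYK2 and 1.54e-10 for IFNAR2.

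Of 11 tested nucleic acid sensors and adaptors, 9 were higher and 2 lower. MAVS, the mitochondrial adaptor of the RIG-I-like receptors, averaged 88.6 ± 1.86 in SW480-LM3 and 21.6 ± 0.634 in SW480-P (log2 fold change 1.99, SE 0.056). The 2 lower genes were CGAS, the cytosolic DNA sensor, at 0.131 ± 0.0804 in SW480-LM3 and 19.5 ± 1.87 in SW480-P, and TBK1, the kinase downstream of several sensors, at 37.2 ± 1.65 in SW480-LM3 and 84.7 ± 4.14 in SW480-P. Of 6 tested genes of ISG15 conjugation and removal, 4 were higher and 1 lower. TRIM25 averaged 122 ± 4.15 in SW480-LM3 and 58.7 ± 1.77 in SW480-P, and HERC5, the main ligase of ISG15 in human cells, had 0 reads in every SW480-LM3 library and averaged 11.2 ± 1.44 in SW480-P. The ligase ARIH1 averaged 78.7 ± 3.15 in SW480-LM3 and 53.9 ± 2.46 in SW480-P.

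Of 19 other antiviral effectors tested, 10 were higher and 9 lower. The membrane proteins IFITM3 and IFITM1 were lower, IFITM3 at 46.9 ± 1.33 in SW480-LM3 and 234 ± 9.75 in SW480-P and IFITM1 at 0.0557 ± 0.0541 in SW480-LM3 and 29.5 ± 1.24 in SW480-P. SAMD9L averaged 0.058 ± 0.1 in SW480-LM3 and 17.4 ± 1.3 in SW480-P. Of 15 other interferon-induced genes tested, 7 were higher and 6 lower. LGALS3BP, a secreted glycoprotein, averaged 495 ± 17.6 in SW480-LM3 and 14.4 ± 1.01 in SW480-P. The nuclear DNA sensor IFI16 averaged 0.0197 ± 0.0341 in SW480-LM3 and 35.1 ± 2.19 in SW480-P, and LY6E averaged 27.2 ± 0.92 in SW480-LM3 and 132 ± 15 in SW480-P. LGALS3BP had a log2 fold change of 5.01 (SE 0.054) and LY6E one of -2.24 (SE 0.071).

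Of 4 tested targets of interferon gamma, 1 was higher and 3 lower, led by the lysosomal thiol reductase IFI30 at 31.2 ± 2.62 in SW480-LM3 and 258 ± 4.36 in SW480-P. GBP3 averaged 2.21 ± 0.389 in SW480-LM3 and 10.2 ± 0.711 in SW480-P, and the tRNA synthetase WARS1 averaged 99 ± 5.07 and 152 ± 2.96 in the same groups. Of 7 inhibitors of JAK-STAT signalling, 1 was higher and 5 lower. The phosphatase PTPN6 averaged 48.2 ± 1.63 in SW480-LM3 and 6.39 ± 0.51 in SW480-P. SOCS3 averaged 4.36 ± 0.489 in SW480-LM3 and 15.5 ± 1.42 in SW480-P, and PTPN2 averaged 49.1 ± 1.98 and 92.2 ± 1.18 in the same groups. Fits without 1 library called 12485 to 12563 of 14527 genes each. The 21 pathway genes the naming rule gave here were called in all of those fits. The rule took the smallest adjusted p of the same data, so this is no separate support. None of the 12 interferon genes on the list was analysed in this comparison.

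**Figure D2:**
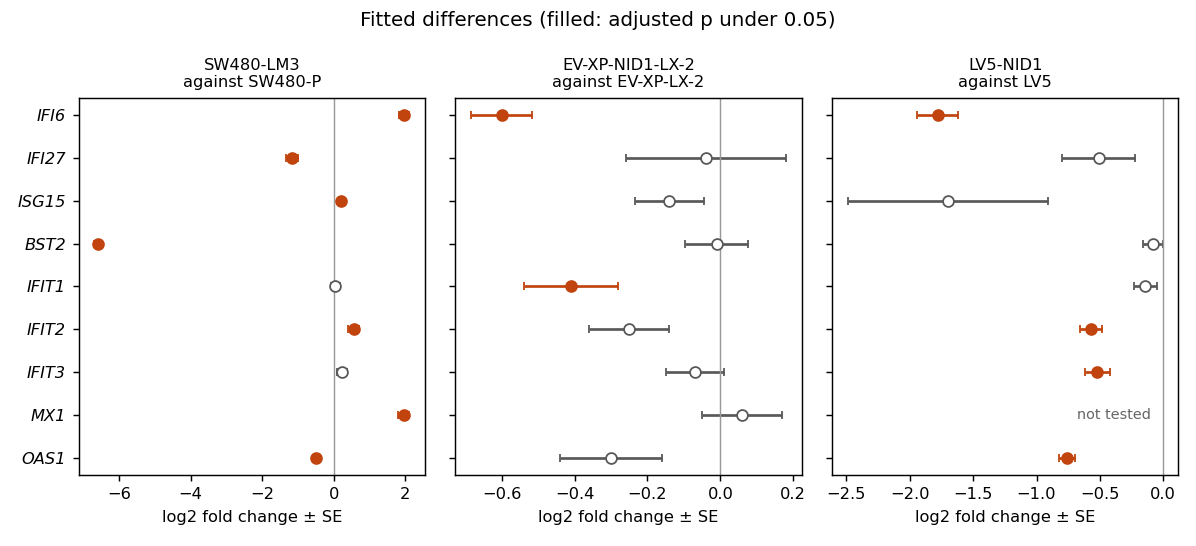
Log2 fold change with its SE for each gene in the 3 comparisons, filled where the adjusted p is under 0.05; the panels have different x axes. BST2 reaches -6.6 in SW480-LM3, IFI6 lies at 1.98 in SW480-LM3, -0.6 in EV-XP-NID1-LX-2 and -1.78 in LV5-NID1, and MX1 was not tested in LV5-NID1.

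The comparison in LX-2 asks how stellate cells respond to exosomes carrying NID1. IFI6 was lower in EV-XP-NID1-LX-2, IFIT1 was lower with a call lost in most fits without 1 library, and the other 7 genes were not called. The count of 2 of 9 called lower and 0 higher stands beside a background of 42.3% of 15802 genes called, 24.6% lower and 17.8% higher. At an unadjusted limma p under 0.05 the counts were also 2 lower and 0 higher. The fitted log2 fold change was below 0 for 8 of the 9 genes and for 55.7% of all tested genes. Its median was -0.14 for the 9 genes and -0.048 for all genes, and no member reached a called change of 1 on that scale, as 1.77% of all genes did.

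IFI6 was at 14.56, 16.18 and 14.5 TPM in EV-XP-NID1-LX-2, against 25.4, 21.21 and 23.47 TPM in EV-XP-LX-2. All libraries given NID1 exosomes were below all control libraries. IFI6 fell by 0.6 on the log2 scale (SE 0.084, adjusted p = 0.00177), with a mean 1.55-fold lower. In bulk RNA, fewer cells expressing a gene and less RNA per cell cannot be told apart. IFIT1 was at 0.58, 0.76 and 0.62 TPM in EV-XP-NID1-LX-2, against 1.34, 1.07 and 1.16 TPM in EV-XP-LX-2. The groups did not overlap, at levels near 1 TPM, and the log2 fold change was -0.41 (SE 0.13, adjusted p = 0.0414). The IFIT1 call did not survive leaving out replicate 1 (adjusted p = 0.105) or replicate 3 (0.098) of EV-XP-NID1-LX-2, or replicate 1 (0.138), 2 (0.0679) or 3 (0.0925) of EV-XP-LX-2, which leaves 1 called member. In those fits the IFIT1 log2 fold change lay between -0.44 and -0.36. They called 4762 to 5818 of all genes, against 6687 with every library.

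Of the genes that were not called, OAS1 and IFIT2 had groups that did not overlap. OAS1 was at 0.63, 0.85 and 0.84 TPM in EV-XP-NID1-LX-2, against 1.03, 1.08 and 1.44 TPM in EV-XP-LX-2 (log2 fold change -0.3, SE 0.14, adjusted p = 0.129). IFIT2 was at 3.63, 3.54 and 4.12 TPM in EV-XP-NID1-LX-2, against 4.23, 5.17 and 4.56 TPM in EV-XP-LX-2 (log2 fold change -0.25, SE 0.11, adjusted p = 0.104). In all, 4 of the 9 genes had groups that did not overlap, against 55.9% of all tested genes. The remaining 5 overlapped. BST2 averaged 17.2 ± 1.14 TPM in EV-XP-NID1-LX-2 and 17.4 ± 1.56 TPM in EV-XP-LX-2 (SD, n = 3 each), with a log2 fold change of -0.01 (SE 0.086). ISG15 averaged 38.6 ± 3.73 and 42.7 ± 4.17 TPM in the same groups, with a log2 fold change of -0.14 (SE 0.094). The log2 fold changes of IFIT3, IFI27 and MX1 were -0.07 (SE 0.079), -0.04 (SE 0.22) and 0.06 (SE 0.11).

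Of 80 tested genes of the wider pathway, 7 were called higher and 33 lower, beside the 17.8% and 24.6% of all genes. The count of higher calls was 15 after median-ratio scaling, 14 after quantile normalization, 13 with the GC trend removed, and 12 when replicate 2 of EV-XP-NID1-LX-2 was left out. In the same order the lower calls were 29, 31, 32 and 29. The share of higher calls among all genes called was 51.2%, 50.8%, 51.1% and 48.8% there, against 41.9% in the main fit. With any 1 library left out, the lower calls of the pathway were 22 to 29. Among other interferon-induced genes, 1 of 18 was higher and 12 were lower. LGALS3BP averaged 39 ± 6.36 TPM in EV-XP-NID1-LX-2 and 78.7 ± 0.361 TPM in EV-XP-LX-2, XAF1 averaged 3.4 ± 0.161 and 8.12 ± 1.23 TPM, and the nuclear body protein SP110 averaged 20.2 ± 0.996 and 29.3 ± 0.207 TPM in the same groups (SD, n = 3 each). The one that rose was IFI16. Among other antiviral effectors, 2 of 20 were higher and 7 lower. The exonuclease ISG20 averaged 4.24 ± 0.811 TPM in EV-XP-NID1-LX-2 and 14.4 ± 0.321 TPM in EV-XP-LX-2 (log2 fold change -1.56, SE 0.12, limma adjusted p = 0.000274). SHFL, an inhibitor of viral frameshifting, averaged 5.58 ± 0.445 and 11.4 ± 0.64 TPM in the same groups. OAS3, a relative of OAS1, was higher, at 13.8 ± 0.671 TPM in EV-XP-NID1-LX-2 and 10.1 ± 0.186 TPM in EV-XP-LX-2.

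Upstream of these genes, 3 of 12 receptor, JAK kinase and ISGF3 genes were lower and none was higher. IFNAR2 and IFNGR1 were among them, and each lost its call without 1 library, IFNAR2 without EV-XP-LX-2 replicate 1 (adjusted p = 0.051) and IFNGR1 without EV-XP-LX-2 replicate 2 (adjusted p = 0.0572). Of 11 sensors and adaptors, 1 was higher and 6 lower. RIGI averaged 5.98 ± 0.11 TPM in EV-XP-NID1-LX-2 and 9.37 ± 0.481 TPM in EV-XP-LX-2, and MAVS averaged 27.1 ± 2.85 and 40.9 ± 0.53 TPM in the same groups. CGAS rose, at 86.5 ± 5.9 TPM in EV-XP-NID1-LX-2 and 54.4 ± 1.93 TPM in EV-XP-LX-2. Of 7 genes of ISG15 conjugation and removal, 1 was higher and 3 lower. UBA7, the activating enzyme of ISG15, averaged 5.93 ± 1.17 TPM in EV-XP-NID1-LX-2 and 11.6 ± 0.519 TPM in EV-XP-LX-2, and ARIH1 averaged 51.7 ± 3.15 and 35.5 ± 0.595 TPM. The conjugating enzyme UBE2L6 lost its call when replicate 1 (adjusted p = 0.0587) or 3 (0.0593) of EV-XP-LX-2 was left out.

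Of 5 targets of interferon gamma, 2 were lower and none was higher. GBP2 averaged 4.53 ± 1.04 TPM in EV-XP-NID1-LX-2 and 10.5 ± 1.1 TPM in EV-XP-LX-2, and GBP3 averaged 47.2 ± 1.45 and 56.2 ± 2.47 TPM. Of 6 inhibitors of JAK-STAT signalling, 2 were higher and none was lower. SOCS2 averaged 6.07 ± 0.546 TPM in EV-XP-NID1-LX-2 and 3.06 ± 0.201 TPM in EV-XP-LX-2 (log2 fold change 0.8, SE 0.1, limma adjusted p = 0.00118). PTPN2 lost its call when replicate 3 of EV-XP-NID1-LX-2 (adjusted p = 0.0531), or replicate 1 (0.0608) or 3 (0.0753) of EV-XP-LX-2, was left out. IFNE, the only interferon gene tested, was at 1.19, 1.43 and 1.87 TPM in EV-XP-NID1-LX-2, against 2.29, 2.36 and 2.1 TPM in EV-XP-LX-2 (log2 fold change -0.39, SE 0.14, adjusted p = 0.0552). Mitochondrially encoded genes made up 3.54% to 3.8% of TPM in EV-XP-NID1-LX-2 and 5.98% to 6.2% in EV-XP-LX-2, and summed stellate or fibroblast markers were 497 to 579 and 598 to 612 TPM, with COL1A1, COL3A1 and PDGFRB called lower. Their part in these results was not tested.

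**Figure D3:**
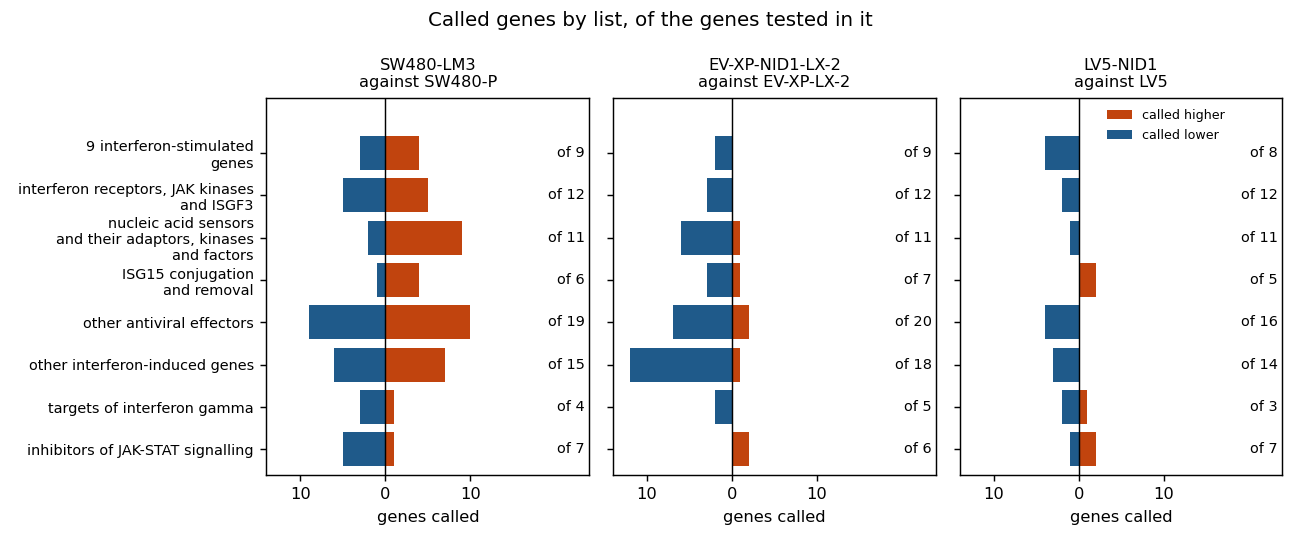
Number of genes called lower (left of 0) and higher (right of 0) in each list and comparison, with the number tested at the right edge. In EV-XP-NID1-LX-2 the list of other interferon-induced genes has 12 lower and 1 higher of 18, and in LV5-NID1 4 of the 8 tested members are lower.

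The LV5 comparison sets SW480 cells with both NID1 overexpression and GW4869 against control SW480 cells, so it does not isolate the exosome pathway. IFI6, OAS1, IFIT2 and IFIT3 were lower in LV5-NID1, no member was higher, and MX1 stayed under the filter on low values (1 TPM or more in at least 3 libraries). The count of 4 of 8 tested genes called lower stands beside a background of 16.6% of 15508 genes called, 9.32% lower and 7.27% higher. At an unadjusted limma p under 0.05 the counts were also 4 lower and 0 higher. The fitted log2 fold change was below 0 for all 8 tested members and for 49.2% of all tested genes, with medians of -0.54 and 0.006. The groups did not overlap for 6 of the 8, against 43.3% of all tested genes, and IFI6 alone was called with a change of at least 1 on the log2 scale, against 1.42% of all genes. Leaving out 1 library changed the count of members called lower to between 2 (without LV5-NID1 replicate 2, LV5 replicate 1 or LV5 replicate 2) and 5 (without LV5-NID1 replicate 3). In the same order, those fits called 750, 713, 714 and 3325 of all genes, against 2572 with every library.

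IFI6 was at 5.28, 3.48 and 3.34 TPM in LV5-NID1, against 15.48, 17.67 and 15.09 TPM in LV5. The groups lay far apart. IFI6 fell by 1.78 on the log2 scale (SE 0.16, adjusted p = 0.00248), with a mean 3.99-fold lower, and only 0.277% of tested genes had a lower log2 fold change. OAS1 was at 16.49, 18.16 and 18.04 TPM in LV5-NID1, against 30.28, 30.66 and 29.97 TPM in LV5. Both groups were tight and did not overlap. OAS1 fell by 0.76 on the log2 scale (SE 0.06, adjusted p = 0.00197), with a mean 1.73-fold lower. The IFI6 and OAS1 calls were kept with any 1 library left out.

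IFIT2 was at 1.69, 1.98 and 2.02 TPM in LV5-NID1, against 3.31, 3.28 and 3.25 TPM in LV5, without overlap (log2 fold change -0.57, SE 0.089, adjusted p = 0.0128). Its call was lost without LV5-NID1 replicate 2 (adjusted p = 0.0546), LV5 replicate 1 (0.0581) or LV5 replicate 2 (0.0608). In those fits the IFIT2 log2 fold change lay between -0.59 and -0.56. IFIT3 was at 3.44, 3.1 and 3.97 TPM in LV5-NID1, against 5.28, 5.38 and 5.61 TPM in LV5, also without overlap (log2 fold change -0.52, SE 0.097, adjusted p = 0.0207). The IFIT3 call was lost without LV5-NID1 replicate 1 (adjusted p = 0.0548) or 2 (0.076) and without LV5 replicate 1 (0.0738), 2 (0.0789) or 3 (0.0714). In those fits the IFIT3 log2 fold change lay between -0.53 and -0.45. They called 713 to 1675 of all genes, against 2572 with every library. IFIT1 was at 1.31, 1.27 and 1.27 TPM in LV5-NID1, against 1.59, 1.45 and 1.53 TPM in LV5. The groups were close without overlap, and the log2 fold change was -0.14 (SE 0.089, adjusted p = 0.296).

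ISG15 was at 22.08, 13.96 and 1.55 TPM in LV5-NID1, against 29.86, 31.85 and 28.62 TPM in LV5. All LV5-NID1 libraries were below all LV5 libraries, and LV5-NID1 replicate 3 was far below its own group. The log2 fold change was -1.7 (SE 0.79) and was not called (adjusted p = 0.184). Without LV5-NID1 replicate 3 it was -0.74 and was called (adjusted p = 0.0345). Within LV5-NID1 the highest ISG15 value plus 1 was 9.05 times the lowest plus 1, a spread reached by 84 of 10716 genes with a mean of at least 5 TPM.

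The low value in LV5-NID1 replicate 3 stood beside a trend on GC content in that library. On the scale of log2 of TPM plus 1, the decile of genes with the highest GC, which holds ISG15, had a median deviation from the group mean of 0.34 in LV5-NID1 replicate 1, 0.19 in replicate 2 and -0.51 in replicate 3. ISG15 itself deviated by 1.27, 0.64 and -1.91 in these libraries. IRF7, which drives interferon production and has 66.8% GC, was at 4.75, 4.06 and 0.67 TPM in LV5-NID1, against 6.48, 7.32 and 6.68 TPM in LV5. TICAM1, an adaptor with 63% GC, was at 11.55, 8.71 and 2.36 TPM in LV5-NID1, against 15.39, 15.48 and 13.89 TPM in LV5. IRF7 and TICAM1 were picked after their values were seen, and neither was called (adjusted p = 0.153 and 0.16). The 5 pathway genes in the highest GC decile were not alike in LV5-NID1 replicate 3, where TICAM1 deviated from the group mean by -1.14, IRF7 by -1.13, LY6E by -0.54, HELZ2 by -0.23 and TYK2 by 0.03. IFI27L2, in decile 8, deviated by -1.14. With the GC trend removed, ISG15 had a log2 fold change of -1.34 (adjusted p = 0.141), IFI6 one of -1.7 (adjusted p = 0.000737), and 4 members were called lower as before. IFI6 has 56.1% GC, OAS1 48.2%, IFIT3 44.3% and IFIT2 42.8%, and the median difference of their deciles lay between -0.06 and 0.07.

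**Figure D4:**
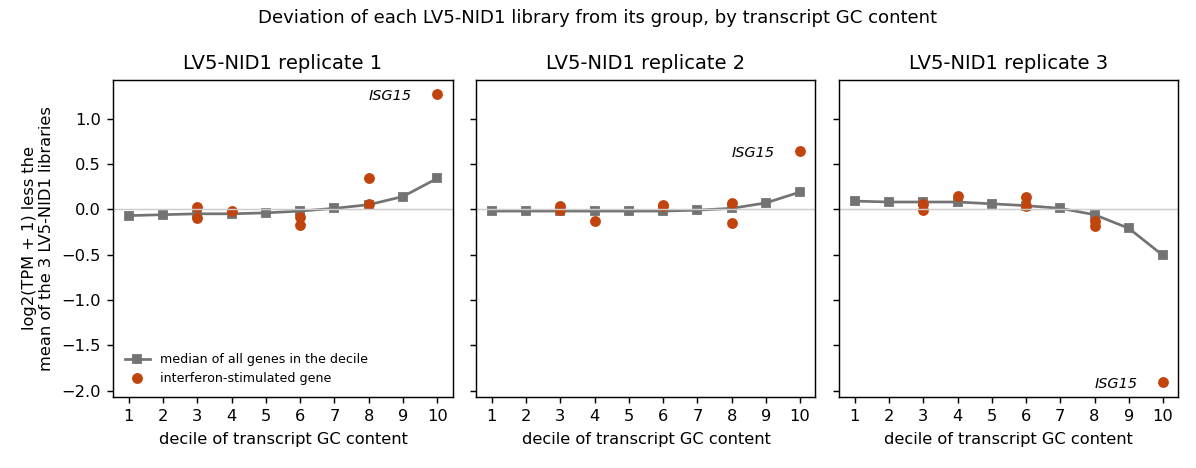
Deviation of log2(TPM + 1) from the mean of the 3 LV5-NID1 libraries, by decile of transcript GC content, as the median of all genes (squares) and for each tested member (circles). ISG15 lies at 1.27, 0.64 and -1.91 in replicates 1, 2 and 3, where the median of its decile is 0.34, 0.19 and -0.51.

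BST2 was at 194.99, 197.19 and 171.29 TPM in LV5-NID1, against 186.43, 198.32 and 210.14 TPM in LV5. The groups overlapped at high levels (log2 fold change -0.08, SE 0.076, adjusted p = 0.492). IFI27 was at 1.12, 1.45 and 1.61 TPM in LV5-NID1, against 4.1, 1.3 and 2.34 TPM in LV5, with overlap (log2 fold change -0.51, SE 0.29, adjusted p = 0.26). MX1 was at 0.79, 0.74 and 0.65 TPM in LV5-NID1, against 0.82, 1.11 and 0.81 TPM in LV5, and was not tested.

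Of 68 tested genes of the wider pathway, 5 were called higher and 13 lower, beside 7.27% and 9.32% of all genes. The count of lower calls was 8 without LV5-NID1 replicate 2, 20 without LV5-NID1 replicate 3, 5 without LV5 replicate 1 and 7 without LV5 replicate 2 or 3. The count of higher calls was 2 without LV5-NID1 replicate 1 and 0 without LV5-NID1 replicate 2 or any LV5 library. Without LV5-NID1 replicate 1, 2 and 3, all genes called were 1675, 750 and 3325, against 2572 with every library. Without LV5 replicate 1, 2 and 3 they were 713, 714 and 1045. Of the 14 pathway genes the naming rule gave here, 4 kept their call with any 1 library left out, and all 4 were lower in LV5-NID1. The rule took the smallest adjusted p of the same data, so this is no separate support. Over all genes, 25.9% to 39.1% of the calls in those fits were higher, against 43.8% with every library. How many of all genes kept their call in every such fit was not counted. IFITM2 averaged 189 ± 8.62 TPM in LV5-NID1 and 271 ± 9.55 TPM in LV5 (limma adjusted p = 0.00391), and IFITM1 averaged 70 ± 5.07 and 115 ± 9.71 TPM in the same groups (limma adjusted p = 0.00572). IFI35 averaged 31.4 ± 1.93 TPM in LV5-NID1 and 54.9 ± 2.62 TPM in LV5 (log2 fold change -0.79, SE 0.067, limma adjusted p = 0.00218). IFI30 averaged 148 ± 20.3 TPM in LV5-NID1 and 246 ± 6.89 TPM in LV5 (limma adjusted p = 0.00896). The other 10 (IL10RB, JAK1, OAS3, LGALS3BP, LY6E and GBP3, called lower, and TRIM25, HERC5, WARS1 and PTPN11, called higher) lost their call in at least 1 fit without a library, with adjusted p of 0.0507 to 0.143 there.

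By list, 4 of 16 other antiviral effectors and 3 of 14 other interferon-induced genes were lower in LV5-NID1, and none of either list was higher. Of 12 receptor, JAK kinase and ISGF3 genes, 2 were lower and none was higher. Of 11 sensors and adaptors 1 was lower, STING1, the adaptor of cytosolic DNA sensing, at 1.65, 2.09 and 1.76 TPM in LV5-NID1, against 3.58, 4.57 and 3.7 TPM in LV5 (log2 fold change -0.8, SE 0.12, adjusted p = 0.0105). Of 5 genes of ISG15 conjugation and removal 2 were higher, of 3 targets of interferon gamma 1 was higher and 2 were lower, and of 7 inhibitors of JAK-STAT signalling 2 were higher and 1 was lower. None of the interferon genes passed the filter. The lower leukocyte marker sum of LV5-NID1 came mainly from ITGB2, at 1.97 TPM in LV5-NID1 and 3.89 TPM in LV5. Summed stellate or fibroblast markers were 18.8 to 25.4 TPM in LV5-NID1 and 29.7 to 35.2 TPM in LV5, with TAGLN called lower, while the epithelial marker EPCAM was called higher. Mitochondrially encoded genes made up 12.9% to 13.2% of TPM in LV5-NID1 and 13.6% to 15.4% in LV5. The part of these markers and shares in the results was not tested.

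Across the cell lines, levels in TPM can be set side by side, though the tables were normalized separately. BST2 averaged 188 ± 14.4 TPM in LV5-NID1 and 198 ± 11.9 TPM in LV5, and 17.2 ± 1.14 TPM in EV-XP-NID1-LX-2 and 17.4 ± 1.56 TPM in EV-XP-LX-2 (SD, n = 3 each). It was the most abundant member in the LV5 groups, and ISG15 was the most abundant in the LX-2 groups. OAS1 averaged 17.6 ± 0.931 TPM in LV5-NID1 and 30.3 ± 0.346 TPM in LV5, and 0.773 ± 0.124 TPM in EV-XP-NID1-LX-2 and 1.18 ± 0.224 TPM in EV-XP-LX-2. IFIT3, MX1, ISG15, IFIT2 and IFI27 were the other way round, with every LX-2 library above every LV5 and LV5-NID1 library. The margin was narrow for IFI27, at 4.16 TPM in the lowest EV-XP-LX-2 library and 4.1 TPM in the highest LV5 library. For IFIT2 these were 3.54 TPM in the lowest EV-XP-NID1-LX-2 library and 3.31 TPM in the highest LV5 library. IFIT3 averaged 10.4 ± 0.83 TPM in EV-XP-NID1-LX-2 and 11 ± 0.248 TPM in EV-XP-LX-2, against 3.5 ± 0.438 TPM in LV5-NID1 and 5.42 ± 0.169 TPM in LV5. For IFI6, the EV-XP-NID1-LX-2 libraries (14.5 to 16.18 TPM) overlapped those of LV5 (15.09 to 17.67 TPM), with EV-XP-LX-2 above both and LV5-NID1 below both.

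IFI6 was the only member called in all 3 comparisons, higher in SW480-LM3 and lower in EV-XP-NID1-LX-2 and LV5-NID1. NID1 RNA was called higher in SW480-LM3 and in LV5-NID1, where IFI6 went opposite ways. In EV-XP-NID1-LX-2, NID1 RNA was called lower (log2 fold change -0.28, SE 0.089, limma adjusted p = 0.0372), and IFI6 was lower too. That value is the LX-2 cells' own NID1 RNA and does not measure NID1 carried by the exosomes. Any relation of IFI6 to NID1 was not tested. OAS1 was called lower in SW480-LM3 and LV5-NID1, and IFIT2 was called higher in SW480-LM3 and lower in LV5-NID1. These differences between comparisons were not tested, since each table was fitted alone.

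Genes with the most similar pattern were sought by Pearson r over the 18 libraries, on log2 of the value plus 1 less the mean of each table, among 11541 genes. The libraries share the group differences, so r is given as a description. BST2 was most like GNB4, TUSC3 and RPS2P5 (r = 0.998 for each), which had log2 fold changes of -6.27, -5.39 and -5.54 in SW480-LM3. IFI6 was most like PRKCZ (r = 0.963), DDOST and OGDH (r = 0.962 for each). ISG15 was most like ESRRA (r = 0.991), GPC1 (r = 0.985) and MZT2B (r = 0.981), with log2 fold changes of -0.69, -1.35 and -1.92 in LV5-NID1. For ISG15 itself these were 0.2 in SW480-LM3, -0.14 in EV-XP-NID1-LX-2 and -1.7 in LV5-NID1, whose replicate 3 deviated from its group mean by -1.91. The r values of ISG15 thus rest largely on the LV5-NID1 libraries, and r without replicate 3 was not computed. OAS1 was most like ACAT2 (r = 0.954), CLU (r = 0.944) and PDXK (r = 0.923). IFIT2 was most like STING1 (r = 0.901), and after it IFI6 (r = 0.898). The highest r was 0.883 for IFIT1 (with COQ10A) and 0.859 for IFI27 (with MOK).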

How the data were processed

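Poly(A) RNA from 18 libraries of human cell lines was sequenced, per the labels' protocols. The submitters' processing notes name HISAT2 2.1.0 and Bowtie2 2.3.5 without roles. For counting tool, build and annotation: not given in the sources used here. The deposited SW480-LM3 and SW480-P values are a signal, in effect read counts over 1 scaling factor per library, since 100% of values were whole reads within 0.05 read. The deposited LX-2 and LV5 values are TPM, made by the authors, of unknown depth, so no counting interval is given.

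The 9 genes and all lists were chosen with earlier results of these data known. Each table was fitted alone with limma 3.58.1 (R 4.3.3, variance trend) on log2(value + 1). Genes needed a value of 1 in 3 or more libraries. Calls used Benjamini-Hochberg adjustment over all tested genes (threshold 0.05) and no replicate block. On recovered reads edgeR 4.0.16 called 12687 genes, and limma 12749. Named genes are all 9 members, NID1, and from each pathway list up to 3 called genes whose higher group averaged 5 TPM (10 signal) or more without overlap, by smallest adjusted p. Any other named gene was picked after its values were seen. Alternatives were quantile, median-ratio and library-total scaling, other pseudocounts and filters, no variance trend, a fold threshold, a replicate block, libraries left out, mitochondrial genes left out, and edgeR and DESeq2 1.42.0 on recovered reads. Removal of a GC trend was added after seeing the data. It covers 97.5%, 95.1% and 93.5% of the tested genes in the SW480-LM3, the LX-2 and the LV5 comparison. The fits were tested on simulated data. Gene positions come from GENCODE v29, promoter sequences from RefSeq (GRCh38.p14). Some genes that the naming rules take are not reported here.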

Additional observations from a re-analysis of the deposited data

How the results depend on the processing

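Direction and call of BST2, IFI6, IFI27 and MX1 in SW480-LM3 and of IFI6 in LV5-NID1 held under every alternative that could be fitted for them. In SW480-LM3, 2 members were called higher at a mean of at least 5 and 2 with an added threshold of 1 on the absolute log2 fold change, where 6592 genes were called, and 3 to 4 with a library left out; ISG15 reversed to -0.47 with the GC trend removed, and the cause was not tested. Library-total scaling moved the median of all genes there to 0.259 and IFIT3 to a call at 0.49 (adjusted p = 0.00521). In LX-2, members called lower were 1 under quantile normalization, a pseudocount of 0.1, a mean of at least 5 (which leaves out IFIT1) or a replicate block, 0 with the fold threshold of 1 (280 genes), and 1 to 2 with a library left out. In LV5-NID1 they were 2 at a mean of at least 5 (fewer genes tested), 1 with that fold threshold (220 genes), 2 with the replicate block, and 2 to 5 with a library left out. All genes called in LV5-NID1 were 1532 with no low filter, 890 with the replicate block, and 713 to 3325 with a library left out: 1675, 750 and 3325 without LV5-NID1 replicate 1, 2 and 3, and 713, 714 and 1045 without LV5 replicate 1, 2 and 3. The share of LV5-NID1 calls that were higher was 43.8%, against 54.8% with quantile normalization, 34% with no low filter, 26.2% with the replicate block, 10% with the fold threshold, and 25.9% (without LV5-NID1 replicate 2 or LV5 replicate 1) to 39.1% (without LV5-NID1 replicate 3) with a library left out. OAS1 in LX-2 was called with no variance trend (adjusted p = 0.0488). The depth behind TPM values near 1 is unknown. Same-numbered libraries of unlike groups were hardly correlated over genes (r from -0.0474 to 0.0632), and in no comparison did every library match its own number best, so the replicate block is given as a setting and not as a pairing.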
